A study of Mus musculus with 4 samples.

Results

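The genes of fatty acid synthesis and oxidation were followed in mouse P14 CD8+ T cells that overexpressed Hic1, a zinc finger transcriptional repressor. The set was a fixed list of 38 gene symbols, and all 38 had a row among the 55401 genes of the deposited count table. The receptor of P14 cells is a transgene that recognises lymphocytic choriomeningitis virus (LCMV). The compared groups were Hic1 vector cells (2 libraries) and empty vector cells (2 libraries). Cells of both groups had been transduced, were exposed to the Armstrong strain of the virus and were recovered from the spleen. The time after infection is day 32 in the sample labels but day 7 in the series text. Each library came from about 1000 resorted cells by Smart-seq2, a method for very small amounts of polyadenylated RNA. Separate mice are not stated for the replicates, and p-values measure only the spread between these samples. No strain, age or sex of the mice was given.

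Fatty acids are activated to acyl-CoA by synthetases, carried into mitochondria by the carnitine shuttle and shortened there by beta-oxidation. Peroxisomes begin the breakdown of very long and branched chains. In the opposite direction, acetyl-CoA carboxylase and fatty acid synthase build the chain in the cytosol, and enzymes of the endoplasmic reticulum elongate and desaturate it. Proliferating effector CD8+ T cells are known for high fatty acid synthesis, and memory CD8+ T cells for their reliance on fatty acid oxidation.

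Total gene counts were 7501285 and 8839317 in the Hic1 vector libraries, against 4017346 and 3941364 in the empty vector libraries, and the Hic1 vector libraries were thus the deeper ones. Hic1 had 314 and 161 counts in the Hic1 vector libraries and 3 and 5 in the empty vector libraries. Gene counts do not separate transcripts of the vector from those of the cell's own Hic1 gene. The replicates numbered 1 carried Xist RNA and no Eif2s3y RNA, a Y-linked transcript, and those numbered 2 showed the converse, so the replicates of a group were not cells of the same sex and their spread includes this difference. For the main genes the difference within each replicate number is therefore also reported. All 8 T cell markers, Cd8a and Cd8b1 among them, were detected. Their summed level in CPM (counts scaled to a common library size) was 6016 and 6824 in Hic1 vector cells. It was 5469 and 5717 CPM in empty vector cells, and Cd4 stayed between 0.228 and 0.704 CPM.

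Of the 38 genes, 2 rose and 2 fell with the Hic1 vector. Acoxl, an acyl-CoA oxidase-like gene, and Acot7, a cytosolic acyl-CoA thioesterase, were higher in Hic1 vector cells. Hacd2, a dehydratase of fatty acid elongation, and Acsl4, a synthetase that prefers arachidonic acid and other polyunsaturated chains, were lower. The other 32 genes tested, among them all 11 genes of mitochondrial beta-oxidation, did not pass. Another 2 genes, Acsl3 and Fads2, had too few counts to be tested. In such bulk libraries, fewer cells of a type and less RNA per cell cannot be told apart.

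Calls were made by edgeR's quasi-likelihood test at a Benjamini-Hochberg adjusted p below 0.05 over 11676 genes, of which 213 (1.82%) passed, 84 higher (0.719%) and 129 lower (1.10%). With library size alone as the scaling, 21.8% of the calls over all genes were higher, against 39.4% here, and the same 4 genes of the list passed. The 4 calls were 11.1% of the 36 tested. The list was drawn up with results of these data known, so this share is a description. The libraries of both groups did not overlap for 18 of the 36 genes (50%), 11 higher and 7 lower, against 51.4% of all genes tested (26.5% higher and 24.9% lower), which is near the background. At an unadjusted p below 0.05, 6 of the 36 genes were higher and 5 lower, against 1099 and 1133 of all 11676 (9.41% and 9.70%). The median log2 fold change was 0.097 over the 36 genes and 0.0087 over all genes tested, and 27 of the 36 were above 0 (75%, against 50.9% of all genes). With library size alone the median was 0.024, with 21 of the 36 above 0, while the median of all genes moved alike, to -0.063. Without empty vector replicate 1 none of the 36 passed by the edgeR test, and 8 genes passed over the whole table.

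**Figure D1:**
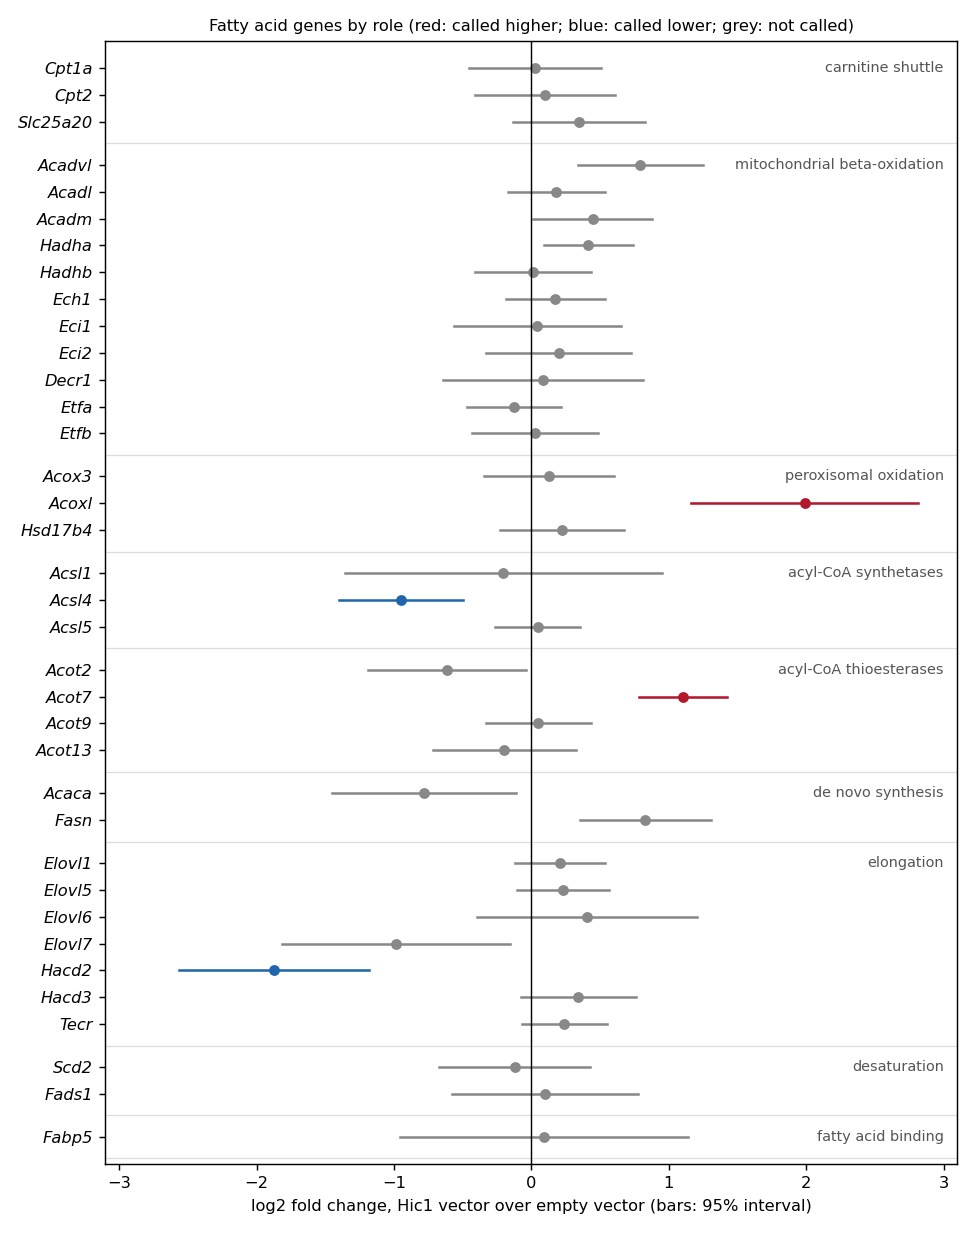
Log2 fold change, Hic1 vector over empty vector, of the 36 genes tested, arranged by role from top to bottom. Points are edgeR estimates, horizontal bars approximate 95% intervals derived from the F statistic, and colour marks the call. Acoxl and Acot7 lie to the right of 0 and Hacd2 and Acsl4 to the left, and most bars of the beta-oxidation genes cross 0.

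Acoxl rose 3.97-fold. The level was 16.0 and 16.2 CPM in the Hic1 vector libraries, against 4.13 and 3.50 CPM in the empty vector libraries. These rest on 114 and 142 counts with the Hic1 vector and on 17 and 14 with the empty vector, so the groups lay far apart but the lower one was thinly covered. The log2 fold change was 1.99 ± 0.378 (SE, n = 2 per group; edgeR adjusted p = 0.0247), with differences of 1.88 and 2.11 within replicate numbers 1 and 2. Acoxl is related in sequence to the peroxisomal acyl-CoA oxidases. It spans chromosome 2, positions 127838876 to 128123873 on the plus strand (mm10, GENCODE M21). The next protein-coding gene, Bcl2l11, which encodes the cell death protein Bim, begins 2165 bp beyond its end and had a log2 value of 0.46 ± 0.251 that did not pass (edgeR adjusted p = 0.349). Acoxl was not called without empty vector replicate 1 (log2 2.11, edgeR adjusted p = 0.143) or without empty vector replicate 2 (log2 1.88, edgeR adjusted p = 0.0515), nor by limma voom (log2 2.04, adjusted p = 0.0582).

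Acot7 rose 2.15-fold and was among the most abundant of these genes per transcript length. Its level was 248.5 and 246.1 CPM in the Hic1 vector libraries and 108 and 122.2 CPM in the empty vector libraries. The libraries of each group were close together and the groups did not overlap. The log2 fold change was 1.10 ± 0.148 (SE, n = 2 per group; edgeR adjusted p = 0.00855), with differences of 1.20 and 1.01 within replicate numbers 1 and 2. The gene lies on chromosome 4, positions 152178134 to 152271855, plus strand. Its call was lost without empty vector replicate 1 (log2 1.02, edgeR adjusted p = 0.0693).

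Hacd2 fell by 1.87 on the log2 scale, to 8.03 and 6.04 CPM in the Hic1 vector libraries, against 28.4 and 24.7 CPM in the empty vector libraries. This dehydratase removes water from the hydroxyacyl-CoA in the elongation cycle of very long chains. Its counts were 57 and 53 with the Hic1 vector and 117 and 99 with the empty vector, so fewer reads came from the deeper libraries. The standard error was 0.317 and the edgeR adjusted p was 0.0195 (n = 2 per group), with differences of -1.78 and -1.98 within replicate numbers 1 and 2. Hacd2 lies on chromosome 16, positions 35022428 to 35109177, plus strand. Without empty vector replicate 1 the log2 value was -1.77 and the call was lost (edgeR adjusted p = 0.143).

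Acsl4 fell by 0.95 (log2; SE 0.206, n = 2 in each group), with an edgeR adjusted p of 0.0445. Its level was 33.1 and 36.6 CPM with the Hic1 vector, against 75.5 and 59.7 CPM in the empty vector libraries. The groups did not overlap, and the drop was larger within replicate number 1 (-1.18) than within number 2 (-0.70). Acsl4 lies on chromosome X, positions 142317993 to 142390535, minus strand. Its call stood closest to the threshold of the 4. It was lost without Hic1 vector replicate 1 (edgeR adjusted p = 0.082), Hic1 vector replicate 2 (0.0698) or empty vector replicate 1 (0.312), with log2 values of -0.87, -1.02 and -0.77. It was also lost after a trend with transcript GC content was removed (log2 -0.74, edgeR adjusted p = 0.0983), and by limma voom (adjusted p = 0.0582).

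**Figure D2:**
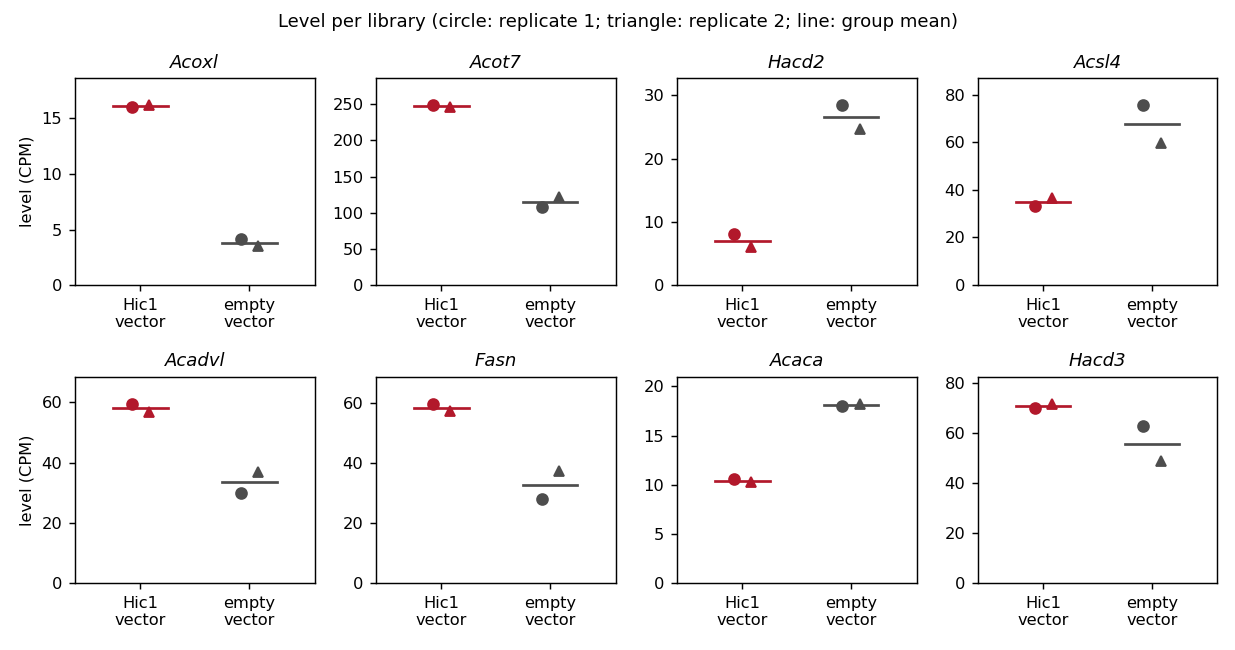
Level in CPM (y axis, starting at 0) of 8 genes in each library, Hic1 vector to the left and empty vector to the right; circles are replicate 1, triangles replicate 2 and lines group means. Acoxl lies at 16.0 and 16.2 CPM with the Hic1 vector and at 4.13 and 3.50 CPM with the empty vector, and Hacd2 and Acsl4 show the opposite order.

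Because Hic1 binds DNA, the 250 bases before the RefSeq transcription start of each gene were searched for the core of its binding element, GGCA, on both strands (RefSeq, GRCm38.p6, the same assembly as mm10). Windows were at hand for 32 of the 38 genes, and the 4 called genes are printed to show what lies there, 5′ to 3′ on the strand of the gene, with capitals for the core (TGCC is the core on the other strand).
Acoxl (chr2:127854378-127854627, plus strand): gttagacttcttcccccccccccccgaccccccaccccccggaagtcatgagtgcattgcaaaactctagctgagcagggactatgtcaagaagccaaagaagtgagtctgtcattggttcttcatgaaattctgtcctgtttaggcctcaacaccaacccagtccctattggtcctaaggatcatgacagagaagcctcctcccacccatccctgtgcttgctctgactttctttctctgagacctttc
Acot7 (chr4:152185358-152185607, plus strand): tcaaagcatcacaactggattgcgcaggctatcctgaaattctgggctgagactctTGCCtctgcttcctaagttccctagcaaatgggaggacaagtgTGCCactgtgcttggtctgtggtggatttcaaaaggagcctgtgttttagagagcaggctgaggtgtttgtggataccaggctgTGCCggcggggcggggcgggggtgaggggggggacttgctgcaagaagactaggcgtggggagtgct
Hacd2 (chr16:35022171-35022420, plus strand): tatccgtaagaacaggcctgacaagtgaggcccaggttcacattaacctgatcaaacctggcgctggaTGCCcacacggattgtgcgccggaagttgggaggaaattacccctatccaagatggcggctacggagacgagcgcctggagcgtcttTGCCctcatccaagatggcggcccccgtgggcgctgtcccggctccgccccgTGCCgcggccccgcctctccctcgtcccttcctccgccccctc
Acsl4 (chrX:142390536-142390785, minus strand): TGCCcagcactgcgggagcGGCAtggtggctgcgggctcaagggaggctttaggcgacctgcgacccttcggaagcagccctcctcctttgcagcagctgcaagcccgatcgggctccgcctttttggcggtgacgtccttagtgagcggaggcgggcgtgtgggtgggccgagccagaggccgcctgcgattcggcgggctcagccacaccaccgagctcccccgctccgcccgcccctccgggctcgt

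The Acoxl window held no core, the Acot7 and Hacd2 windows held 3 each and the Acsl4 window held 2. A core was present in 29 of the 32 genes. By window it was in 31 of their 34 windows (91.2%) and in 88.2% of all windows of this length, so a match says little. The longer elements GGGCACCC and GGGCAACC, which contain the core, were in none of these genes' windows and in 1.67% of all windows. A sterol response element, TCACNCCAC, is the motif of the lipid regulator SREBP. It was in 1 of the 34 windows (2.94%, a second start of Acsl1) and in 1.04% of all windows. For Acoxl and Acot7 the RefSeq start lies inside the GENCODE gene, so these windows cover only 1 of the annotated starts. These matches are descriptions of letters in a window and not binding sites.

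None of the 3 genes of the carnitine shuttle passed. Cpt1a, the malonyl-CoA-sensitive transferase that controls entry of long chains into mitochondria, was at 86.5 and 59.4 CPM in Hic1 vector libraries and at 62.1 and 80.9 CPM in empty vector libraries. The groups overlapped, and the difference was 0.47 within replicate number 1 and -0.45 within number 2. The log2 fold change of Cpt1a was 0.03, with a 95% interval of -0.45 to 0.51. Cpt2, the inner membrane transferase, had a log2 value of 0.10 ± 0.234 (SE). Slc25a20, the carnitine-acylcarnitine carrier, was at 59.3 and 43.3 CPM with the Hic1 vector, against 40.8 and 39.7 CPM with the empty vector (log2 0.35 ± 0.221), and did not pass.

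Mitochondrial beta-oxidation genes had log2 values above 0 in 10 of 11 cases (90.9%, against 50.9% of all genes). Their median was 0.17, against 0.0087 over all genes, with a range of -0.12 to 0.79. None passed by the edgeR test (3 had an unadjusted p below 0.05, and none passed by DESeq2 or limma voom). With library size alone 7 of the 11 were above 0, and the median of all genes was then -0.063. Acadvl, the very long chain acyl-CoA dehydrogenase, was at 59.5 and 57 CPM in Hic1 vector libraries, against 30.1 and 37.0 CPM in empty vector libraries. The groups were apart and the log2 value was 0.79 ± 0.209 (edgeR adjusted p = 0.0734). Acadvl overlaps Dvl2 on the other strand, and reads of the pair were not separated here. Without a filter on low counts Acadvl was called (edgeR adjusted p = 0.008). Among the other chain-length dehydrogenases, Acadm (medium chains) had a log2 value of 0.45 ± 0.198 and Acadl (long chains) one of 0.18 ± 0.162.

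The trifunctional protein, which carries out the remaining steps on long chains, is built from the products of Hadha and Hadhb. Hadha was at 201.8 and 207.4 CPM with the Hic1 vector and at 141.5 and 165.4 CPM with the empty vector (log2 0.41 ± 0.149). Hadhb was at 64.3 and 77.5 CPM with the Hic1 vector and at 79.6 and 61.2 CPM with the empty vector, so its groups overlapped (log2 0.01 ± 0.193). Neither passed. Ech1, Eci1, Eci2 and Decr1, the auxiliary enzymes for unsaturated chains, had log2 values of 0.17, 0.04, 0.20 and 0.08. Etfa and Etfb, the electron transfer flavoprotein subunits that take electrons from the dehydrogenases, had values of -0.12 ± 0.156 and 0.02 ± 0.210, and the 95% interval of Etfa ran from -0.47 to 0.22. Of the other peroxisomal genes, Acox3, a branched chain acyl-CoA oxidase, had a log2 value of 0.13 ± 0.217 and Hsd17b4, the peroxisomal multifunctional enzyme, one of 0.22 ± 0.207.

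No other synthetase or thioesterase passed. Acsl5, the most abundant of the synthetases per transcript length, was at 227.8 and 213.3 CPM in Hic1 vector libraries and at 202.7 and 224.4 CPM in empty vector libraries, and the 95% interval of its log2 fold change was -0.26 to 0.36. Acsl5 overlaps Zdhhc6 on the other strand, and reads of the pair were not separated here. Zdhhc6 had 514 and 697 counts with the Hic1 vector and 396 and 366 with the empty vector. Acsl1 was low, at 3.94 and 3.65 CPM with the Hic1 vector, against 5.10 and 3.75 CPM with the empty vector. Acsl3 had 1 and 0 counts with the Hic1 vector and 0 and 2 with the empty vector. Among thioesterases, Acot2 of mitochondria was at 22.2 and 25.3 CPM with the Hic1 vector, against 44.2 and 29.0 CPM with the empty vector (log2 -0.61 ± 0.264), and did not pass. Acot2 has close paralogs in tandem, and reads shared with them were not resolved here. Acot9 and Acot13, further mitochondrial thioesterases, had values of 0.05 ± 0.174 and -0.20 ± 0.238.

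The 2 enzymes of de novo synthesis lay on opposite sides of 0, and neither passed by the edgeR test. Fasn, fatty acid synthase, was at 59.8 and 57.3 CPM in Hic1 vector libraries, against 28.2 and 37.5 CPM in empty vector libraries (log2 0.83 ± 0.217, edgeR adjusted p = 0.0714). Acaca, the carboxylase that makes the malonyl-CoA used by Fasn, was at 10.6 and 10.3 CPM with the Hic1 vector, against 18.0 and 18.2 CPM with the empty vector (log2 -0.78 ± 0.307, edgeR adjusted p = 0.185). For both genes the groups did not overlap. Without a filter on low counts Fasn was called (edgeR adjusted p = 0.0046). Within replicate numbers 1 and 2 the differences were 1.08 and 0.61 for Fasn and -0.75 and -0.81 for Acaca.

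Of the 7 elongation genes Hacd2 fell, none rose and 6 did not pass. Elovl1 and Elovl5, condensing enzymes for saturated and for polyunsaturated chains, had log2 values of 0.21 ± 0.15 and 0.23 ± 0.154, and Tecr, the reductase of the last step, one of 0.24 ± 0.142. Elovl1 overlaps Cdc20 on the other strand, and reads of the pair were not separated here. Elovl7 was at 6.34 and 11.6 CPM in Hic1 vector libraries, against 21.9 and 14.5 CPM in empty vector libraries. Its log2 value was -0.98 ± 0.38, but the difference was -1.73 within replicate number 1 and -0.31 within number 2, and it did not pass. Elovl6, which extends the product of fatty acid synthase, was at 13.7 and 11.1 CPM with the Hic1 vector, against 7.28 and 11.2 CPM with the empty vector, with overlap. Hacd3, which catalyses the same step as Hacd2, was at 69.8 and 71.7 CPM with the Hic1 vector, against 62.9 and 48.7 CPM with the empty vector (log2 0.34 ± 0.191), and did not pass.

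The desaturases showed no call. Scd2, a stearoyl-CoA desaturase, was at 27.3 and 21.8 CPM in Hic1 vector libraries and at 27.2 and 26.2 CPM in empty vector libraries. Fads1, a desaturase of polyunsaturated chains, was at 17.3 and 22.3 CPM with the Hic1 vector, against 22.3 and 14.7 CPM with the empty vector, and its partner Fads2 had 0 and 10 counts with the Hic1 vector and 3 and 0 with the empty vector. Fabp5, a cytosolic fatty acid binding protein known for a part in resident memory T cells, was low in all libraries, at 5.49 and 4.79 CPM with the Hic1 vector, against 5.10 and 4.50 CPM with the empty vector. The 95% interval of its log2 fold change was wide, from -0.96 to 1.14.

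Ratios of gene pairs within a library do not depend on the scaling between libraries. These pairs were chosen after the values were seen. The count ratio of Hacd2 to Hacd3 was 0.115 and 0.0843 in Hic1 vector libraries, against 0.452 and 0.508 in empty vector libraries. The ratio of Acaca to Fasn was 0.176 and 0.179 with the Hic1 vector and 0.638 and 0.487 with the empty vector. The ratio of Acsl4 to Acsl5 was 0.145 and 0.171 with the Hic1 vector and 0.372 and 0.266 with the empty vector. In these 3 pairs the groups did not overlap, which is a description of pairs chosen for it. The groups also did not overlap for Acoxl to Acox3, Acot7 to Acot9 and Elovl7 to Elovl5. The same held for Etfa to Etfb, at 2.14 and 1.86 with the Hic1 vector and 2.21 and 2.18 with the empty vector. Among single genes the groups did not overlap for 51.4% of all genes tested, so such a separation says little. The ratio of Hadha to Hadhb, 3.14 and 2.68 with the Hic1 vector and 1.78 and 2.70 with the empty vector, overlapped. An exact permutation test of 2 libraries against 2 cannot give a two-sided p below 0.333.

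Per kilobase of principal transcript, the genes spanned a wide range of levels. Ech1 was highest in both groups, at a mean of 209.9 CPM per kb with the Hic1 vector and 186.2 CPM per kb with the empty vector. Tecr followed at 174.4 CPM per kb with the Hic1 vector and 147.8 CPM per kb with the empty vector. Acot7 came next with the Hic1 vector, at 164.3 CPM per kb, against 76.5 CPM per kb with the empty vector, where Elovl1 (88.2 CPM per kb) and Acadl (81.4 CPM per kb) lay above it. Acoxl averaged 5.67 CPM per kb with the Hic1 vector and 1.34 CPM per kb with the empty vector, below Acox3 (13.5 with the Hic1 vector and 12.3 CPM per kb with the empty vector) in both groups. Hacd2 averaged 1.95 CPM per kb with the Hic1 vector and 7.38 CPM per kb with the empty vector, and lay below Hacd3 in both groups, at 26.1 with the Hic1 vector and 20.6 CPM per kb with the empty vector. The rises and falls thus concerned an abundant gene, Acot7, and genes of low or middle level.

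**Figure D3:**
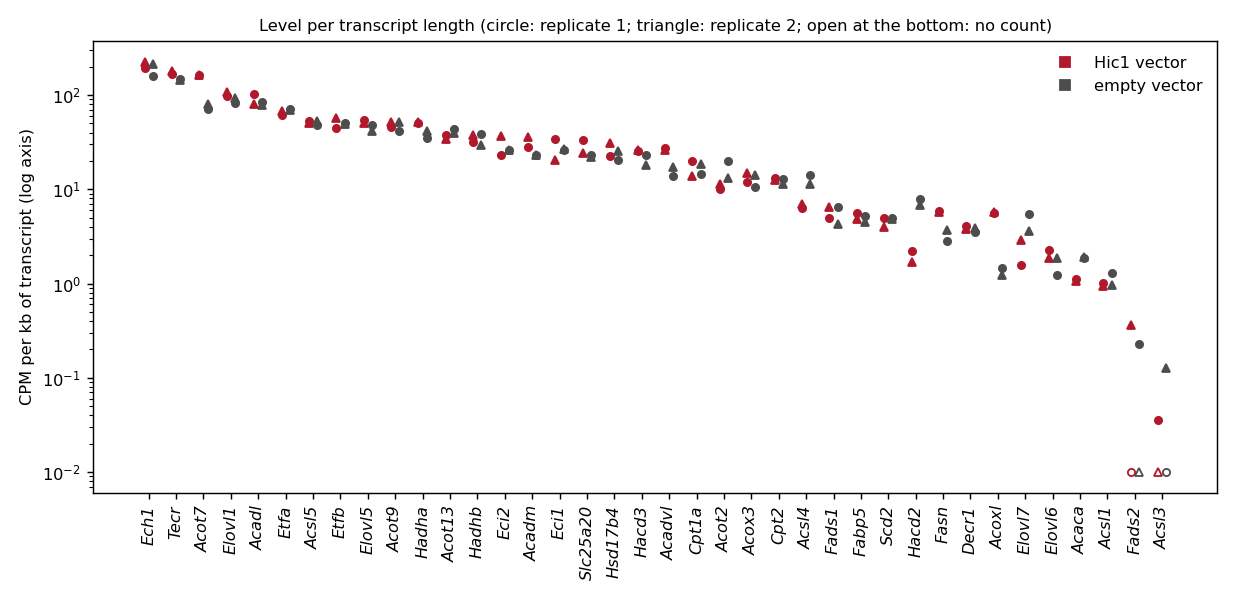
CPM per kb of principal transcript (log y axis) of all 38 genes in each library, ordered by their mean over the 4 libraries; red is the Hic1 vector (to the left in each pair) and grey the empty vector, and open symbols at the bottom mark libraries with no count. Ech1 and Tecr stand at the top and Acsl3 and Fads2 at the bottom. The red and grey points lie apart for Acot7, Acsl4, Hacd2 and Acoxl, and also for genes that were not called, such as Acaca.

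The genes that moved differed in base composition. The longest transcripts of Acot7 and Acoxl have 56.2% and 51.9% GC, and those of Hacd2 and Acsl4 45.3% and 39.0%. Over the 36 genes the log2 fold change increased with transcript GC content (Spearman's rho 0.351, Pearson's r 0.422), and over the 11667 genes tested with a known GC content rho was 0.303. These are correlations across genes of the same 4 libraries, and genes are not independent replicates. With the GC trend taken out of each library, rho over the 36 genes was 0.059 and r was 0.241. The correction removes this trend over all genes by design (rho 0.027 afterwards), so the fall in rho is no separate result. Acot7 (log2 0.92), Acoxl (log2 1.92) and Hacd2 (log2 -1.75) were still called, while Acsl4 (log2 -0.74) was not. Over all genes tested, 38 were then called higher and 79 lower, against 84 and 129 without this correction.

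**Figure D4:**
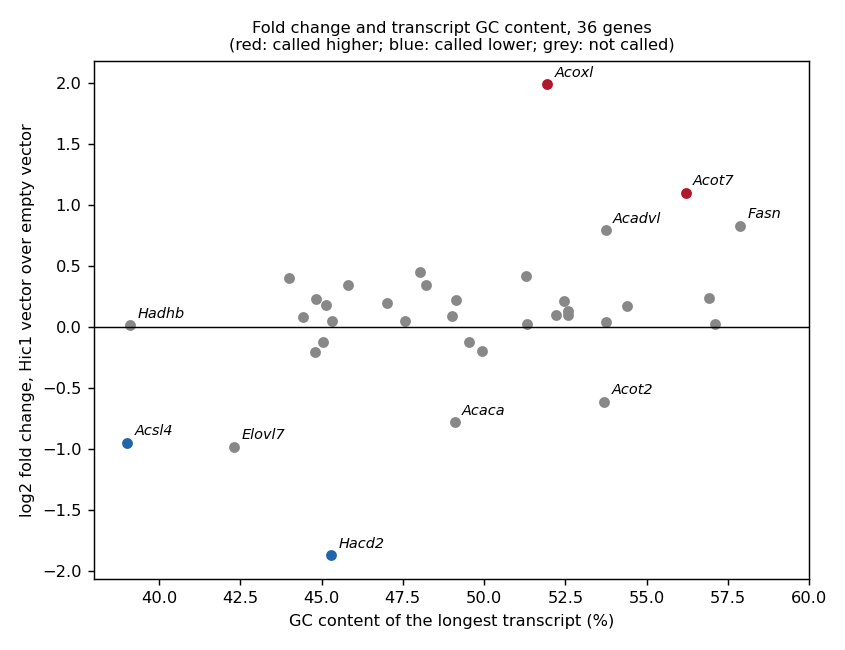
Log2 fold change, Hic1 vector over empty vector (y axis), against the GC content of the longest transcript in percent (x axis), 1 point per gene for the 36 genes tested, coloured by call. Acot7 at 56.2% GC lies above 0 and Acsl4 at 39.0% GC below, while Hadhb, at 39.1% GC, lies at 0.01.

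No gene of the wider pathway passed by the edgeR test, but up to 5 did under other settings. Of 90 tested genes in 5 further lists (other oxidation genes, other synthesis genes, uptake and storage, regulators, and sterol synthesis), 0 were called by edgeR. An unadjusted p below 0.05 by the edgeR test was found for 15 of the 90, against 2232 of all 11676 genes tested. Limma voom called 0 and DESeq2 called 2 (Nr1h2 higher and Lpin1 lower), against 1.04% and 3.58% of all genes. Without a filter on low counts edgeR called 5 of 123 (Acads, Acat2 and Nr1h2 higher, Lpin1 and Oxsm lower), against 2.56% of all genes. Over the 14 alternatives Nr1h2 was called in 6, Lpin1 in 5 and Acads, Acat2 and Oxsm in 2 each. Among 22 other oxidation genes 18 had a log2 value above 0 (81.8%, against 50.9% of all genes), with a median of 0.30. Acads, the short chain dehydrogenase, was at 47.3 and 48.1 CPM in Hic1 vector libraries, against 27.2 and 27.7 CPM in empty vector libraries (log2 0.79 ± 0.215, edgeR adjusted p = 0.0798). Acot8 of peroxisomes had a log2 value of 0.63 ± 0.233 and the thiolase Acaa1a one of 0.38 ± 0.161. The medians of the remaining lists were -0.05 for 10 other synthesis genes, 0.23 for 15 uptake and storage genes, 0.14 for 23 regulators (-0.015 after GC correction) and 0.10 for 20 sterol synthesis genes.

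Among the regulators, Nr1h2, which encodes the oxysterol receptor LXR beta, came closest to the threshold, at 122.8 and 150.4 CPM with the Hic1 vector and 79.6 and 88.9 CPM with the empty vector (log2 0.70 ± 0.164, edgeR adjusted p = 0.0563). Mbtps1 and Mbtps2, the proteases that release SREBP from the membrane, lay on opposite sides of 0, with log2 values of 0.44 ± 0.170 and -0.95 ± 0.309. Of the storage genes, Lpin1, a phosphatidate phosphatase, was at 55.7 and 94.1 CPM with the Hic1 vector, against 123.3 and 154.4 CPM with the empty vector (log2 -0.88 ± 0.239, edgeR adjusted p = 0.0924). Agpat1 and Pnpla2, enzymes of glycerolipid synthesis and of lipolysis, had values of 0.55 ± 0.220 and 0.46 ± 0.186. Of the synthesis genes, Oxsm, a mitochondrial ketoacyl synthase, had -0.98 ± 0.336, Acacb -0.85 ± 0.623 and Acss1 0.16 ± 0.157. Of the sterol genes, Acat2 had 0.80 ± 0.227, Mvd 0.59 ± 0.266 and Lss 0.60 ± 0.292.

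The summed level of 5 B cell markers was 213 to 278.3 CPM in Hic1 vector libraries and 79.6 to 88.4 CPM in empty vector libraries. Ighm made up most of each sum, at 237.9 and 197.1 CPM with the Hic1 vector and 61.4 and 84.4 CPM with the empty vector. Of the 5, Ighm was called higher with the Hic1 vector, and Cd79a and Cd79b did not pass. Ms4a1 and Pax5 were too low to test, each under 1 CPM in every library. The sum of 7 myeloid markers was 49.0 to 56.1 CPM with the Hic1 vector and 50.2 to 64.7 CPM with the empty vector. Its members lay on both sides of 0. Fcgr3 was at 5.63 and 5.58 CPM with the Hic1 vector, against 0.971 and 2.00 CPM with the empty vector (log2 1.71 ± 0.614, edgeR adjusted p = 0.122). Itgam was at 15.5 and 17.8 CPM with the Hic1 vector, against 33.5 and 28.2 CPM with the empty vector (log2 -0.88 ± 0.262, edgeR adjusted p = 0.100). In both genes the groups did not overlap, and neither passed. The sum of 6 erythroid and platelet markers was at most 3.24 CPM. The part of other cells in the fatty acid values was not tested.

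**Figure D5:**
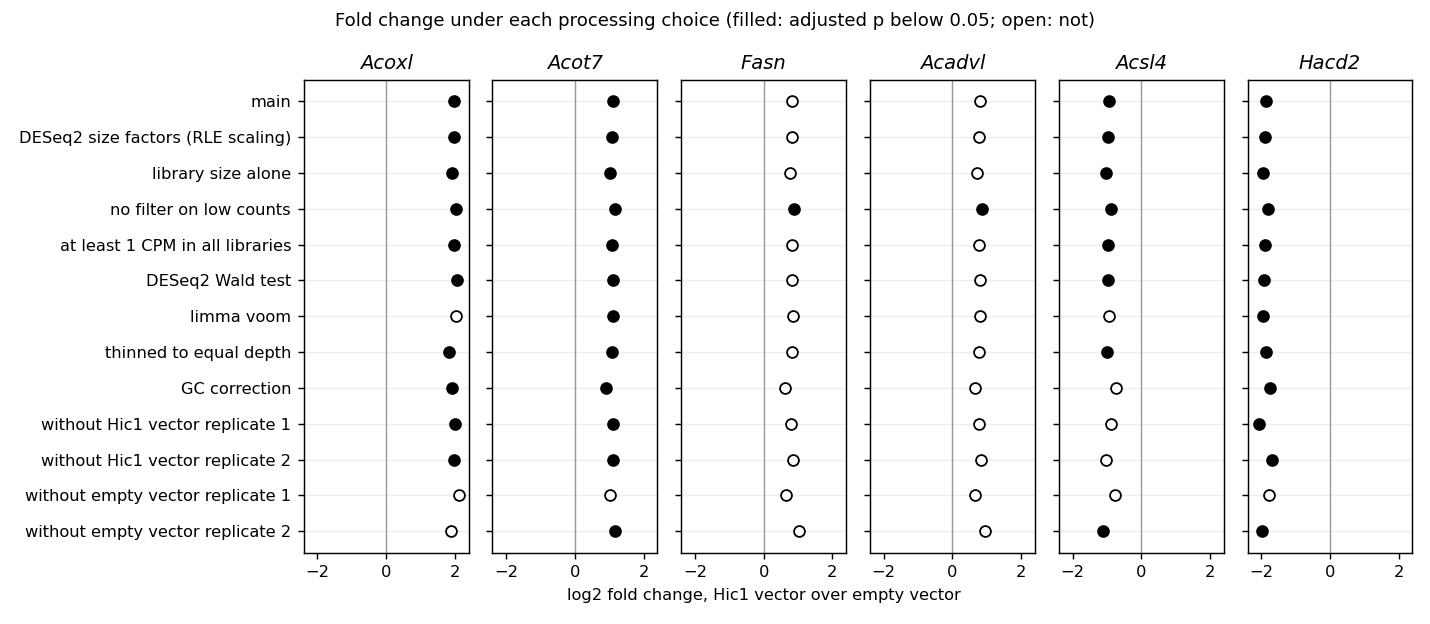
Log2 fold change, Hic1 vector over empty vector (x axis), of 6 genes under 12 processing choices (rows) and the main one; filled points have an adjusted p below 0.05 and open points do not. Each gene keeps its side of 0 in every row shown, Acot7 and Hacd2 lose the call only without empty vector replicate 1, and, among the rows shown, Fasn and Acadvl are called only without a filter on low counts.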

How the data were processed

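The deposited table holds raw read counts per gene as whole numbers, 1 column per library. The tools named in the submitters' processing notes, with no order, are featureCounts 1.5.3, STAR 2.5.2b, Trimmomatic 0.38 and DESeq2 1.3.2, and the genome is mm10. The annotation release is not given in the sources used here. A second deposited table of normalized values was not used.

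Columns were matched to samples by title. Low genes were removed with filterByExpr (edgeR 4.0.16, R 4.3.3; at least 10 counts, 15 in total). After TMM scaling, the robust quasi-likelihood F test was run on group only (prior count 2 for fold changes), and p-values were adjusted over all 11676 genes. On simulated counts of the same depth, the test called 70 of 105 genes changed 2-fold and 93 of 95 changed 4-fold. It also called 13 of 11071 unchanged genes. The changed genes were drawn only from those with higher counts, so rarer genes were not covered. CPM values use TMM-scaled library sizes, and reads without molecular identifiers are not independent molecules. Length and GC content came from GENCODE M21, where 99.5% of identifiers matched; coordinates are given where the identifier's version matched. The 14 alternatives included DESeq2 1.42.0, limma 3.58.1 and a loess GC correction (span 0.3). Figures used matplotlib 3.10.9.

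All 38 genes could be named, and of the other lists called genes and the 3 of lowest p. Bcl2l11, Dvl2, Cdc20, Zdhhc6 and the genes' ratios were added after their values were seen. The genes and lists were chosen with earlier results of these data known. A further marker gene is not reported here.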

Additional observations from a re-analysis of the deposited data

How the results depend on the processing

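Over 14 alternatives, 450 of 504 values of single genes kept their direction and their side of the threshold, 11 lost a call, 4 gained one and 39, none of them called, lay on the other side of 0. Such log2 values were -0.054 (Cpt1a), -0.062 (Hadhb), -0.041 (Eci1), -0.048 (Etfb), -0.029 (Acsl5) and -0.022 (Acot9) with library size alone; -0.0059 (Hadhb) with at least 1 CPM in all libraries; -0.034 (Eci1) by limma voom; -0.023 (Cpt1a) and -0.0045 (Acsl5) after thinning to equal depth; -0.014 (Cpt1a), -0.089 (Eci1), 0.0085 (Etfa) and -0.17 (Etfb) after GC correction; -0.029 (Cpt1a), -0.13 (Eci1), 0.0064 (Etfa) and -0.18 (Etfb) with the replicate block and GC correction. With a library left out, the log2 values that crossed 0 ran from -0.26 to 0.28 (Cpt1a), -0.0029 to 0.19 (Cpt2), -0.0016 to 0.35 (Acadl), -0.18 to 0.21 (Hadhb), -0.021 to 0.39 (Ech1), -0.37 to 0.38 (Eci1), -0.18 to 0.50 (Eci2), -0.14 to 0.18 (Etfb), -0.059 to 0.34 (Acox3), -0.022 to 0.43 (Hsd17b4), -0.41 to 0.017 (Acsl1), -0.023 to 0.11 (Acsl5), -0.092 to 0.20 (Acot9), -0.29 to 0.037 (Scd2), -0.18 to 0.42 (Fads1) and -0.0029 to 0.19 (Fabp5). The count of all genes called was 213, and it was 321 with library size alone, 819 without a filter on low counts, 418 by DESeq2, 121 by limma voom, 117 after GC correction and 8 to 318 with a library left out. The count of fatty acid genes called was 4, and it was 2 by limma voom (Acot7 and Hacd2), 6 without a filter (Fasn and Acadvl added) and 0 to 3 with a library left out, the 0 without empty vector replicate 1. With a library left out, the lone library of its group is assumed to vary like those of the other group. The median log2 fold change of these genes, 0.097, became 0.024 with library size alone and 0.16 without a filter, while that of all the same genes, 0.0087, became -0.063 and 0.0698. The labels do not say that a replicate number pairs the samples; same-numbered libraries deviated from their group means with a correlation of 0.239. With the replicate number as a block, 794 genes passed, and 6 fatty acid genes, Fasn (edgeR adjusted p = 0.0304) and Acadvl (0.0324) among them; with the block and GC correction, 460 and 3. The cause of these shifts was not tested. Depth limits the rarer genes: the 95% interval of the log2 fold change ran from -1.36 to 0.95 for Acsl1 and from -0.65 to 0.81 for Decr1.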
